A study of Mus musculus with 12 samples.

Results

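RNA sequencing of FACS-sorted astrocytes was compared between complete transection (FT) and lateral hemisection (HS) of the mouse spinal cord 1 week after injury, to ask which transcripts differed between the more and the less severe lesion at the same delay. The comparison took in every gene of the table and was defined by the labels alone: the single FT library of 1 week against the 3 HS libraries of 1 week, that is 4 of the 12 libraries. All mice were adult males of an Aldh1l1-EGFP transgenic line on a Swiss Webster background, in which the Aldh1l1 promoter drives eGFP, so that cells were selected by their eGFP signal. Both lesions were thoracic. The remaining 8 libraries came from non-injured mice (NI, 3 libraries) and from mice 2 weeks after HS (2 libraries) or FT (3 libraries). The methods give several animals for each group and describe several biological replicates for each time point, whereas FT at 1 week had a single library in the samples analysed here. Neither they nor the labels say how many animals stand behind a library, and the p-values may therefore measure technical spread in part.

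Libraries held between 8270643 reads (FT 1 week) and 15562378 reads (HS 1 week replicate 3) assigned to genes, so that 1 read in the FT library was worth 0.134 normalized counts. Values are normalized counts, that is reads scaled to a common library size, and are not per gene length. Levels were therefore compared between libraries and not between genes. Sorted cells were labelled astrocytes, and transcripts of myelinating oligodendrocytes were also present in every library. Over the 12 libraries the 20 astrocyte markers summed to between 3151 and 16210 normalized counts and the 12 oligodendrocyte markers to between 56580 and 117200. Aldh1l1, the gene whose promoter drives the reporter, measured 48.5 in FT and 73.0, 126.7 and 13.8 in the 3 HS libraries. HS replicate 3 stood apart from the other HS libraries, with the lowest astrocyte and the highest microglial sum of the 12 libraries, and the HS values are therefore given library by library. In such bulk samples, fewer cells of a type and less RNA per cell cannot be told apart.

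Interferons are secreted cytokines that signal through Jak kinases and Stat transcription factors. Type II interferon acts mainly through gamma-activated sites, and type I interferons mainly through interferon-stimulated response elements (ISRE). Among their best known targets in mouse are 2 families of GTPases, the immunity-related GTPases (Irg proteins, such as Iigp1, Igtp, Irgm1 and Tgtp1) and the guanylate-binding proteins (Gbp), which act on membranes around intracellular pathogens, and the genes that load peptides onto major histocompatibility complex (MHC) molecules for T cells.

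A gene was called when its adjusted p was under 0.05 and its change at least 2-fold in a limma-trend model on log2(normalized count + 1) with all 5 groups. Because FT at 1 week had a single library, its spread was taken from the other groups, and an exact permutation test of 1 library against 3 cannot go below a one-sided p of 0.25. Of 16388 genes tested, 57 were called (0.348%), with 47 higher in FT (0.287%) and 10 lower (0.061%), while 925 genes had an unadjusted p under 0.05. In the 47 genes called higher, the FT value was the highest of all 12 libraries, and it exceeded the next library by 2.85- to 39.0-fold (median 7.3). In the 10 called lower, FT was the lowest of the 12. The FT library lay above all 11 others in 7.98% of all tested genes and below all 11 in 11.5%, and above or below all 3 HS libraries in 19.1% and 23.5%. The median difference over all tested genes was -0.01 on the log2 scale.

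**Figure D1:**
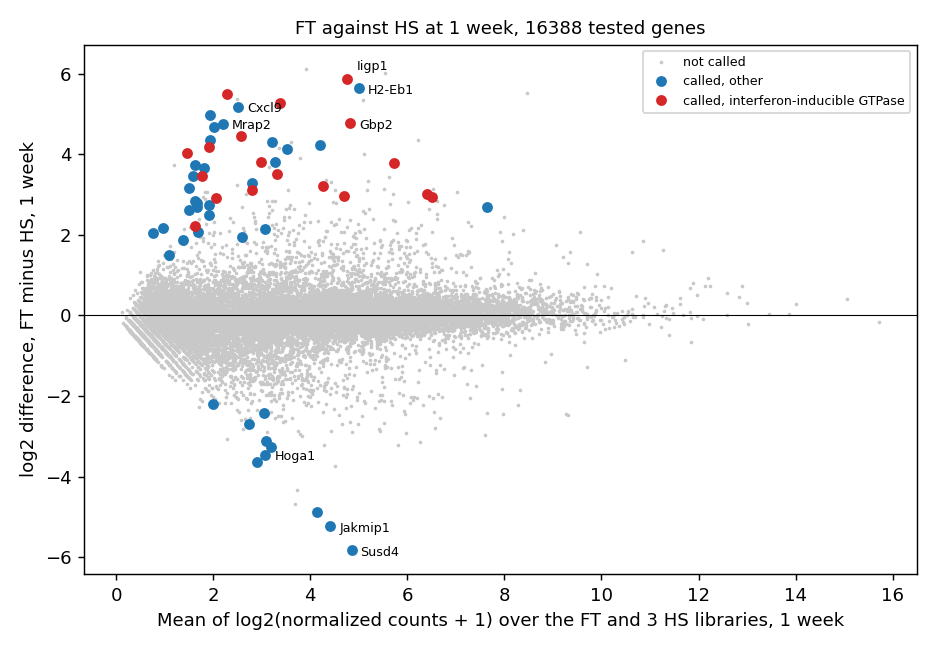
Mean log2 level over the FT and the 3 HS libraries of 1 week (x axis) against the log2 difference FT minus HS (y axis) for the 16388 tested genes, one grey point each; called interferon-inducible GTPase genes are red and the other called genes blue. The 18 called GTPase genes all lie above 0, and the 10 genes called lower reach -5.82.

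Of the 33 gene lists, that of interferon-inducible GTPases held the most called genes. The lists were chosen with earlier results of these data known. Shares of a list set beside those of all genes are therefore descriptions, and no list was tested as a set. Of the 23 members measured, 18 rose and none fell, against 0.287% of all genes called higher, and all 23 had their highest value of the 12 libraries in FT, against 7.98% of all genes. Together they summed to 3056 normalized counts in FT against 218.6, 204.8 and 244.6 in HS and 110.9 to 238.5 in the NI and 2-week libraries. The median log2 difference was 3.45 against HS as a group, and 3.25, 3.90 and 3.15 against HS replicates 1, 2 and 3. All 23 members were higher in FT than in each of the 3 HS libraries, against 19.1% of all genes.

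Iigp1, an Irg protein, had the largest difference of the 57 called genes, with 575.4 normalized counts in FT against 9.21, 8.07 and 9.24 in HS. The difference of 5.87 ± 0.58 (SE) on the log2 scale passed the limma-trend test (adjusted p = 0.00173). In normalized counts, without the added 1, the FT value was 65.1 times the HS mean. NI libraries held 2.09 to 5.82 and 2-week libraries 4.89 to 15.7, so that the FT library stood alone. Gbp2, a guanylate-binding protein also used as a marker of A1 reactive astrocytes, measured 337.6 in FT against 13.2, 7.03 and 15.7 in HS (log2 difference 4.77 ± 0.53, adjusted p = 0.00401). Gbp1, which current annotation names Gbp2b, measured 83.9 against 1.58, 0.347 and 0.918 (5.50 ± 0.40, adjusted p = 0.000337). Gm12250, an Irg family gene, measured 161.0 against 3.15, 1.82 and 5.32 (5.27 ± 0.52, adjusted p = 0.00173). In these genes no other library came within an order of magnitude of the FT value.

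Igtp, Irgm1 and Gbp7 were expressed at 20 or more normalized counts in every HS library. Igtp, known as Irgm3, measured 375.0 in FT against 20.6, 24.3 and 36.5 in HS, a difference of 3.78 ± 0.50 (adjusted p = 0.00811). Irgm1, a regulator of the other Irg proteins, measured 415.9 against 46.9, 55.6 and 59.6 (2.93 ± 0.44, adjusted p = 0.0155). Its call was lost when HS replicate 1 or 2 was left out. Gbp7 measured 405.1 against 57.2, 65.4 and 32.1 (3.01 ± 0.47, adjusted p = 0.0223), a call lost without HS replicate 1 or without replicate 1 of FT at 2 weeks. Irgm1, Gbp7, Gbp6, Tgtp1, Irgm2, F830016B08Rik, Gbp3, Gm4841, Gm12185 and the 5 members that were not called fell outside the rule for named genes and are given after their values were seen.

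At lower levels, Gbp4 (log2 difference 4.46), Tgtp2 (4.17), Gbp8 (4.03), Ifi47 (3.80), Gbp6 (3.5), Tgtp1 (3.45), Irgm2 (3.22), F830016B08Rik (3.11), Gbp3 (2.97), Gm4841 (2.91) and Gm12185 (2.23) were also called. FT values in these genes ran from 8.86 in Gm12185 to 120.9 in Gbp3. The call of Gm12185 held with just 1 of 11 libraries left out, and that of Ifi47 with 5. Ifi47 lost it without NI replicate 3, HS replicate 1 or 2 or any FT library of 2 weeks, and Gm12185 without any library but HS replicate 3. The calls of Gbp6 and Gm4841 held with 10, being lost without HS replicate 2 and HS replicate 1, respectively. In all, 12 of the 18 called GTPase genes kept their call whichever of the 11 other libraries was left out. The 5 members not called were Gm4951 (log2 difference 3.91, adjusted p = 0.0908), Gbp5 (2.33, adjusted p = 0.074), Gbp9 (2.72, adjusted p = 0.605), Gbp10 (1.72, adjusted p = 0.215) and Gbp11 (0.67, adjusted p = 1.0). Tgtp1 and Tgtp2 are near-identical copies, as are several Gbp genes, so their reads may be divided wrongly between copies.

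**Figure D2:**
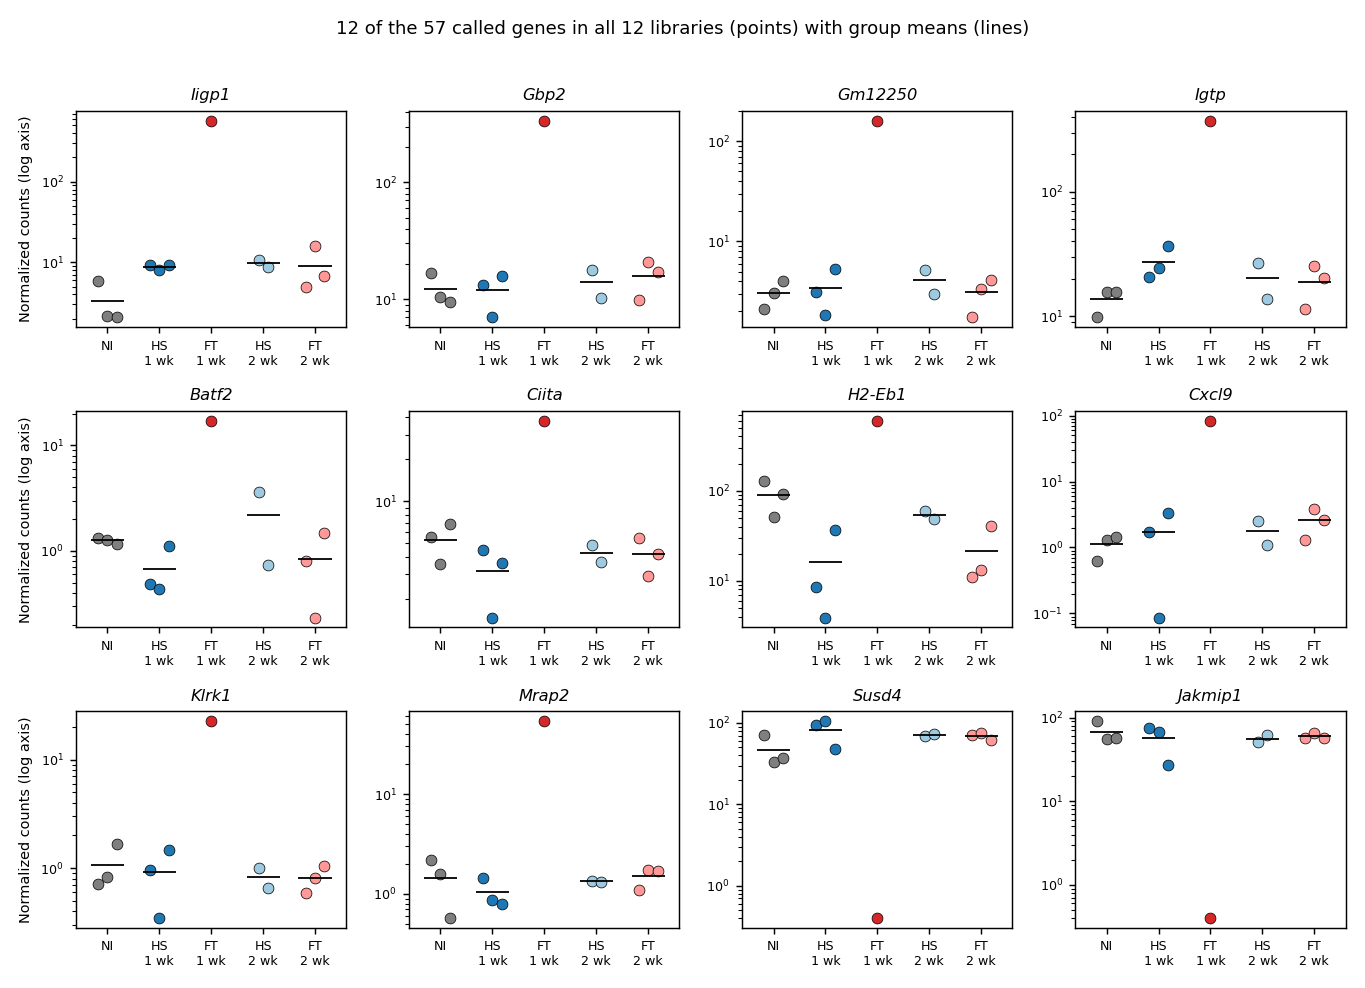
Normalized counts (log axis) of 12 called genes in all 12 libraries, one point per library, grouped as NI, HS 1 week, FT 1 week, HS 2 weeks and FT 2 weeks, with a line at the mean of each group of more than 1 library. The FT 1 week point is above all others in the 10 genes from Iigp1 to Mrap2 and below all others in Susd4 and Jakmip1, where it stands at 0.403.

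The called GTPase genes lay in few places of the genome (GRCm38.p6, RefSeq). 8 were on chromosome 11, 4 in one stretch at chr3:142530336-142638008 (Gbp7, Gbp3, Gbp1, Gbp2), 3 in another at chr5:105012513-105295871 (Gbp8, Gbp4, Gbp6) and 3 elsewhere. Over all called genes, 18 of the 47 higher and 0 of the 10 lower lay within 500000 bp of another called gene. These 18 were the called GTPase genes themselves, so the count says nothing of clustering among the other called genes. The share among all tested genes was not counted.

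Promoters of called genes were searched for the core letters of both interferon-responsive elements in a window from 250 bases before to 50 after the start (RefSeq, GRCm38.p6), on both strands. For the ISRE core, which is a repeated GAAA with any 2 bases between, 11 of 12 called GTPase genes with a promoter in the table held a match (91.7%), against 0 of 21 other genes called higher, 0 of 9 called lower and 3.74% of the 12836 tested genes with a promoter. For the gamma-activated site core, TTCNNNGAA, the shares were 58.3% (7 of 12), 9.52% (2 of 21), 0 of 9 and 8.36%. A match describes letters in this window and shows no binding. The GTPase list holds genes known for induction by interferon, so matches were likely whatever these data showed. Its uncalled members were not counted apart. Some of these promoters, such as those of Tgtp1 and Tgtp2, share near-identical stretches and are not independent. The promoters of 3 GTPase genes that hold matches are printed here, with matches to either core in capitals, beside that of Mrap2, whose log2 difference was 4.75 and which holds neither; in these windows no match overlaps another.
Gbp2 (chr3:142620413-142620712, plus strand): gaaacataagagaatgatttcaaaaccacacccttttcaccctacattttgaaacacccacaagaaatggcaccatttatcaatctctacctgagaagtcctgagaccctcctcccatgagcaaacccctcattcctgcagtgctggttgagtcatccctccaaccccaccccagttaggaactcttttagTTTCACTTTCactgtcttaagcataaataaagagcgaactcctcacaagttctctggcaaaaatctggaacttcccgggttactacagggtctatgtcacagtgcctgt
Gm12250 (chr11:58183593-58183892, plus strand): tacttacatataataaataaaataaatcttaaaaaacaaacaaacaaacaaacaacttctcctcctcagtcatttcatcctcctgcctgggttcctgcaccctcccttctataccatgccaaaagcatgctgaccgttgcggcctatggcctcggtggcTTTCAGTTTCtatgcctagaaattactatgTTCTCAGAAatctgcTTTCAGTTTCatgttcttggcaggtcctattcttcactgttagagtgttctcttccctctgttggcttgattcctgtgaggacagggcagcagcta
Igtp (chr11:58199306-58199605, plus strand): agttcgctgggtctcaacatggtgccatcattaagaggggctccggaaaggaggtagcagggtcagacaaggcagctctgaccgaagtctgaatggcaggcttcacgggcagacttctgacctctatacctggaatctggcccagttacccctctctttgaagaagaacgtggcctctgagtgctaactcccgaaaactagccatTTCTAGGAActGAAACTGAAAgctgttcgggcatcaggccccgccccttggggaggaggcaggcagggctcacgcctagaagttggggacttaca
Mrap2 (chr9:87144056-87144355, plus strand): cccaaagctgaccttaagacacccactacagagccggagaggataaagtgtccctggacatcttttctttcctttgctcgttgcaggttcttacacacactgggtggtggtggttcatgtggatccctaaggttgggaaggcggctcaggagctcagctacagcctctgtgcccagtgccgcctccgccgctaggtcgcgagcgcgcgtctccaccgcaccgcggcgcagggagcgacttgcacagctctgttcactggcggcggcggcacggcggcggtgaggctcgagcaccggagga
The capitals in Gbp2 are 1 ISRE core on the reverse strand. Gm12250 holds 2 ISRE cores and 1 gamma-activated core between them, and Igtp holds 1 of each, side by side.

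No antiviral interferon-stimulated gene passed the test. Of 31 measured (the Oas, Ifit, Mx and related families, which act against viral RNA and replication), 0 were called by limma-trend, 12 had an unadjusted p under 0.05 with a higher value in FT, and the lowest adjusted p was 0.08, for Zbp1. The list nevertheless sat above the median of all genes: its median log2 difference was 1.30, 24 of 31 members had their highest value of the 12 libraries in FT against 7.98% of all genes, and the sum was 2059 in FT against 837.1, 979.7 and 1056 in HS. Zbp1, a sensor of Z-form nucleic acid, measured 58.6 in FT against 3.39, 1.99 and 6.79 in HS (3.67 ± 0.71), and was called by the edgeR likelihood ratio test (adjusted p = 0.00115), which like DESeq2 called 1 member, while the quasi-likelihood test called 0. Usp18, a brake on type I interferon signalling, measured 140.3 against 88.1, 96.3 and 118.0 (0.48 ± 0.70, adjusted p = 1.0). Ifi27l2a measured 260.3 against 111.2, 299.8 and 96.3, inside the range of the HS libraries. In both of these highly expressed members the difference was smaller than its standard error or close to it.

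Among genes of interferon signalling, one that rose was Batf2. This interferon-induced transcription factor measured 17.1 in FT against 0.485, 0.434 and 1.10 in HS (log2 difference 3.45 ± 0.51, adjusted p = 0.0155), a call lost without HS replicate 1 or 2. Stat2, a transcription factor of type I signalling, measured 106.6 against 42.3, 41.1 and 49.2 (1.26 ± 0.34, adjusted p = 0.337). The 16 measured genes of this list had a median log2 difference of 0.63, which was 1.11 and 1.38 against HS replicates 1 and 2 (15 and 16 of 16 members higher) and 0.0 against HS replicate 3 (8 of 16). None of the 7 receptors and kinases on it was called. The receptor chains Ifnar1, Ifnar2, Ifngr1 and Ifngr2 had differences of 0.03 ± 0.29, 0.48 ± 0.59, 0.46 ± 0.93 and 0.93 ± 0.80, and the kinases Jak1, Jak2 and Tyk2 of 0.39 ± 0.26, 0.07 ± 0.31 and 0.33 ± 0.56 (limma-trend adjusted p = 1.0 for each). Ifnb1, an interferon itself, held 2.55 in FT against 1.94, 0 and 5.14 in HS. Ifng and Socs1 were not analysed here. Irf1 (log2 difference 2.38 ± 0.80, adjusted p = 0.573), like the receptors, the kinases and Ifnb1, is named after its values were seen.

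Of 12 genes of MHC class II presentation 2 rose, against 0.287% of all genes called higher. Ciita, the master transactivator of class II genes, measured 37.6 in FT against 4.49, 1.48 and 3.61 in HS (log2 difference 3.28 ± 0.50, adjusted p = 0.0178), and its call was kept whichever other library was left out. H2-Eb1, a class II beta chain, measured 594.6 against 8.49, 3.90 and 36.6 (5.63 ± 0.98, adjusted p = 0.0435). NI libraries held 51.4 to 128.1 of H2-Eb1, more than the HS libraries, and FT exceeded the highest of the other 11 by 4.64-fold. Its call was lost without any of 8 libraries (NI 2 and 3, HS replicates 1 and 2, both HS libraries of 2 weeks, and FT replicates 1 and 2 of 2 weeks). The other class II chains, given after their values were seen, had differences of similar size that did not pass limma-trend: H2-Ab1 differed by 6.01 ± 1.12 (adjusted p = 0.0625), H2-Aa by 5.35 ± 1.01 (adjusted p = 0.0666) and the invariant chain Cd74 by 5.51 ± 1.19 (adjusted p = 0.134). These 3 genes had adjusted p of 0.000165, 0.000134 and 0.00138 with the edgeR likelihood ratio test, which called 5 of the 12 higher, against 0.488% of all genes.

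Among the HS libraries, microglial transcripts varied along with the class II genes, and their part in the difference between FT and HS was not tested. The 12 class II genes summed to 9023 in FT against 227.3, 73.6 and 1031 in HS. The 17 microglial markers summed to 13580 in FT and 4654, 1228 and 16820 in HS, and none of them was at 0 in FT. Of the 17 microglial markers 0 were called by limma-trend, edgeR or DESeq2 and 2 had an unadjusted p under 0.05. Their median log2 difference was 1.41, and it was 1.31 and 3.53 against HS replicates 1 and 2 but -0.61 against HS replicate 3. In 5 of the 17 FT lay above all 3 HS libraries, against 19.1% of all genes, and in 3 above all 11 others, against 7.98%. Ctss, a lysosomal protease, measured 4834 in FT against 1419, 360.6 and 4691 in HS, so that FT was just above the HS range. Named after their values were seen, Aif1, the calcium-binding protein Iba1, measured 466.7 against 75.4, 14.1 and 132.2 (3.13 ± 1.21, adjusted p = 0.751), and P2ry12, a receptor of resident microglia, 189.1 against 193.8, 46.2 and 619.9 (0.09 ± 1.64, adjusted p = 1.0). These are the largest and the smallest difference of the list. The class II median of 2.97 was 2.98, 4.29 and 1.27 against HS replicates 1, 2 and 3.

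Class I presentation genes were above HS in FT without a call. All 17 measured members were higher in FT than in each HS library, against 19.1% of all genes, and 16 were the highest of the 12 libraries, against 7.98%. The median log2 difference was 1.81, and 0 were called by limma-trend, although 15 had an unadjusted p under 0.05. The edgeR likelihood ratio test called 7 of the 17, against 0.488% of all genes called higher by that test, DESeq2 called 6 and the quasi-likelihood test 0. Given after their values were seen, the 7 were Tap1, the peptide transporter (181.3 in FT against 14.1, 16.7 and 33.6, log2 difference 3.12 ± 0.56, limma-trend adjusted p = 0.0546), the immunoproteasome subunits Psmb8 (3.13 ± 0.74), Psmb9 (3.11 ± 0.70) and Psmb10 (1.81 ± 0.36), the proteasome activator subunits Psme1 (2.25 ± 0.57) and Psme2 (1.5 ± 0.30), and Nlrc5, the class I transactivator (1.84 ± 0.36). B2m, the class I light chain, measured 3606 against 1175, 1016 and 1489 (1.57 ± 0.64, adjusted p = 0.804). Calr, a chaperone of the same pathway that is abundant in all cells, measured 540.0 against 379.0, 474.5 and 483.7 (0.28 ± 0.27).

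**Figure D3:**
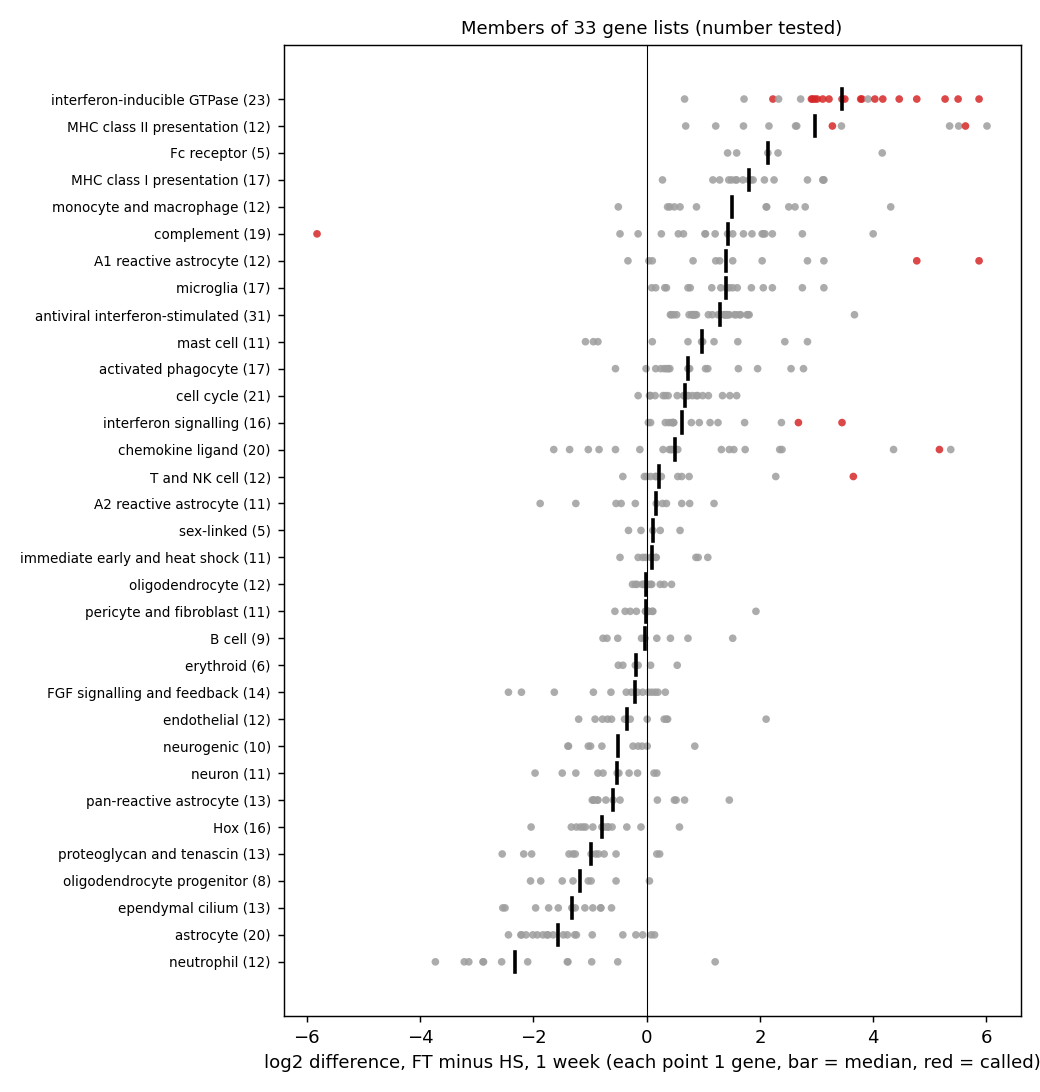
Log2 difference FT minus HS at 1 week (x axis) for the members of 33 gene lists (rows, with the number of genes tested), one point per gene, red where called, and a bar at the median of each list. The GTPase list has the highest median, at 3.45, followed by MHC class II at 2.97, and the neutrophil list has the lowest, at -2.33.

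Among chemokines, complement and receptors, single genes were called. Cxcl9, a chemokine induced by type II interferon that attracts T cells (chr5:92321331-92328079), measured 82.9 in FT against 1.70, 0.0868 and 3.303 in HS (log2 difference 5.17 ± 0.67, adjusted p = 0.00703), and 0.629 to 3.84 in all NI and 2-week libraries. It was the single chemokine called of 20, against 0.287% of all genes called higher, and kept its call with each library left out. The quasi-likelihood test called 0 of the 20. Ccl8, named after its value was seen, measured 91.3 against 5.33, 0.0868 and 0.612 (5.37 ± 1.01, adjusted p = 0.0671). Cxcl13, a B cell attractant, measured 719.7 against 37.0, 11.97 and 87.0, and the difference of 4.36 ± 1.63 did not pass (adjusted p = 0.705). Ccl4 measured 340.7 against 179.7, 75.1 and 1250, inside the HS range. Ccl8 and Cxcl13 were the highest of the 12 libraries in FT, whereas Ccl4 peaked in HS replicate 3.

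Klrk1, Il18bp and Il12rb1, immune receptors and a cytokine inhibitor, were called higher. Klrk1, which encodes the receptor NKG2D of natural killer and T cells (chr6:129610323-129623903), measured 22.6 in FT against 0.970, 0.347 and 1.47 in HS (3.65 ± 0.37, adjusted p = 0.002). For other T and natural killer genes, named after their values were seen, Cd3e measured 0.940 against 0.364, 0.781 and 1.16, and Cd8a 1.88 against 0.364, 0.520 and 1.41. The 12 measured genes of that list, Klrk1 included, summed to 48.9 in FT, 6.85 to 35.7 in HS and up to 92.2 in NI. The summed level in FT therefore lay above all 3 HS libraries but below the highest NI library. In 5 of the 12 FT lay above all 3 HS libraries, against 19.1% of all genes, and in 0 below them, against 23.5%. The list median was 0.62 and 0.76 against HS replicates 1 and 2 and -0.12 against replicate 3. Nkg7 measured 2.55 against 0.727, 1.04 and 12.8. Gzmb, a cytotoxic protease, measured 10.9 against 1.58, 0.173 and 3.79 (2.28 ± 1.21, adjusted p = 0.977). Il18bp, a secreted inhibitor of interleukin 18, measured 96.4 against 5.09, 4.16 and 4.65 (4.12 ± 0.53, adjusted p = 0.00703). The HS libraries were tight for this gene and FT was 10.2 times the highest other library. Il12rb1, a subunit of the receptors for interleukins 12 and 23, measured 24.6 against 4.97, 4.68 and 4.77 (2.14 ± 0.38, adjusted p = 0.0459), and its call held with just 2 of the 11 libraries left out, replicates 1 and 2 of FT at 2 weeks. Il2rg, the common gamma chain, measured 205.1 against 21.2, 5.03 and 62.9 (3.33 ± 1.21, adjusted p = 0.668). Fcgr4, an activating Fc receptor, measured 88.4 against 3.52, 1.04 and 12.6 (4.16 ± 1.20, adjusted p = 0.402), and 0 of 5 Fc receptor genes were called by limma-trend, edgeR or DESeq2, with 1 at an unadjusted p under 0.05. In 4 of the 5 FT lay above all 3 HS libraries, against 19.1% of all genes, and in 3 above all 11 others, against 7.98%. Their median was 2.14, and 1.99, 3.71 and 0.59 against HS replicates 1, 2 and 3.

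Complement genes were mixed. Cfb, factor B of the alternative pathway, measured 276.9 in FT against 20.4, 3.04 and 59.4 in HS (4.0 ± 1.24, adjusted p = 0.477), and C1qb 2199 against 552.3, 153.4 and 1701 (2.06 ± 1.25, adjusted p = 1.0). C4b measured 1629 against 1323, 595.4 and 644.6 (1.03 ± 0.57, adjusted p = 1.0), with reads that could be shared with its near-identical copy C4a. Of 19 complement genes 0 rose and 1 fell, against 0.287% and 0.061% of all genes. The gene that fell was Susd4, a membrane-bound inhibitor of complement. The list median was 1.43, and 0.86, 2.0 and 0.75 against HS replicates 1, 2 and 3. FT lay above all 3 HS libraries in 11 of the 19, against 19.1% of all genes, and below them in 3, against 23.5%.

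Genes called lower in FT were present in all 11 other libraries and nearly absent in this one. Susd4 (chr1:182764044-182896596) measured 0.403 in FT, that is 3 reads, against 94.7, 104.9 and 47.8 in HS and 33.5 to 75.8 in NI and at 2 weeks. The HS mean was 204.7 times the FT value (95% counting interval 70.0 to 992.5), and the log2 difference of -5.82 ± 0.47 passed the test (adjusted p = 0.000563). Jakmip1, which encodes a microtubule-associated protein that binds Janus kinases (chr5:37025852-37150614), also had 3 reads, 0.403 against 75.0, 67.5 and 27.1 in HS, with a ratio HS over FT of 140.3 (48.0 to 680.5) and a log2 difference of -5.23 ± 0.49 (adjusted p = 0.00159). Best3, a bestrophin chloride channel, measured 0.403 against 29.3, 39.8 and 54.6, with a ratio of 102.4 (35.0 to 496.3) and a difference of -4.87 ± 0.70 (adjusted p = 0.0134). In these 3 genes the lowest of the other 11 libraries held 33.5, 27.1 and 19.4 normalized counts.

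Hoga1, a mitochondrial aldolase of hydroxyproline breakdown, measured 0.403 in FT against 10.6, 15.3 and 18.2 in HS, with a ratio HS over FT of 36.4 (12.5 to 176.7) and a log2 difference of -3.45 ± 0.34 (adjusted p = 0.00173). The predicted gene 1700018B08Rik had a single read in FT, 0.134 against 14.1, 15.5 and 10.1 (ratio 98.5, interval 17.7 to 3890; log2 difference -3.63 ± 0.54, adjusted p = 0.0155). The vomeronasal receptor gene Vmn2r1 had 2 reads, 0.269 against 4.36, 5.38 and 4.77 (ratio 18.01, interval 4.99 to 148.7; log2 difference -2.20 ± 0.34, adjusted p = 0.0193). Both of these calls were lost without HS replicate 1 or 2, whereas those of Susd4, Jakmip1, Best3 and Hoga1 held in every omission. The remaining genes called lower were Slc26a9, an anion transporter (log2 difference -3.27), Lrrc43 (-3.12), Pabpn1l (-2.68), and Lgals2, a galectin (-2.43). Slc26a9 and Pabpn1l lost their calls without NI replicate 3, HS replicate 1 or 2, or replicate 1 of FT at 2 weeks, and Pabpn1l also without replicate 2 of FT at 2 weeks. Over the 10 genes the FT library held 1 to 10 reads and each single HS library of 1 week 36 to 1209. 105 genes of the table had no read at all in FT, against 39, 50 and 4 in HS replicates 1, 2 and 3. The counting intervals cover counting error alone, since reads without molecular identifiers are not independent molecules. Of the 10 genes, Susd4 belonged to one of the 33 lists and 9 to none.

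In 23 of the 47 genes called higher, no list held the gene, and their log2 differences ran from 1.49 to 4.96. Gm15070, which current annotation names Trpc5os, measured 49.4 in FT against 0.970, 0.347 and 0.612 in HS (4.96 ± 0.30, adjusted p = 0.000107). Mrap2, an accessory protein of melanocortin receptors (chr9:87144236-87184051), measured 53.5 against 1.46, 0.868 and 0.795 (4.75 ± 0.39, adjusted p = 0.000563). Neu2, a cytosolic sialidase, measured 35.5 against 0.485, 0.347 and 1.90 (4.34 ± 0.52, adjusted p = 0.00577). All 3 were at or under 2.87 in every library but FT. Galnt13, which starts O-linked sugar chains, was expressed in all libraries and measured 165.5 against 7.88, 10.9 and 5.44 (4.24 ± 0.56, adjusted p = 0.00811). Serpina3g, an intracellular protease inhibitor, measured 68.8 against 5.09, 2.78 and 4.47 (3.80 ± 0.54, adjusted p = 0.013).

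Several of these genes are best known from other tissues. They included, named after their values were seen, Dazl, a germ cell RNA-binding protein (12.6 in FT against 1.46, 0.607 and 0.734 in HS, log2 difference 2.84), Cacna1g, a T-type calcium channel (12.8 against 1.46, 2.00 and 1.04, 2.48), Nr1h5, a nuclear receptor (10.1 against 1.09, 0.260 and 1.22, 2.62), Ccdc79, a meiotic telomere protein (8.46 against 1.70, 0.954 and 1.22, 2.06), and Olfr70, an olfactory receptor (3.90 against 0.121, 0.0868 and 0.367, 2.05). Selp, the adhesion molecule P-selectin, had the smallest difference among the called genes (3.63 against 0.606, 0.607 and 0.734, 1.49). Olfr70 and Selp lost their calls without HS replicate 1 or 2, and that of Ccdc79 held just without either HS library of 2 weeks. The HS mean was under 10 normalized counts in 39 of the 47 genes and under 2 in 26. Ly6i, AW112010 and 4933433G15Rik (log2 differences 3.72, 4.31 and 4.67) completed the genes of the 20 largest increases. AW112010 lost its call without HS replicate 1 or 2 or any FT library of 2 weeks.

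**Figure D4:**
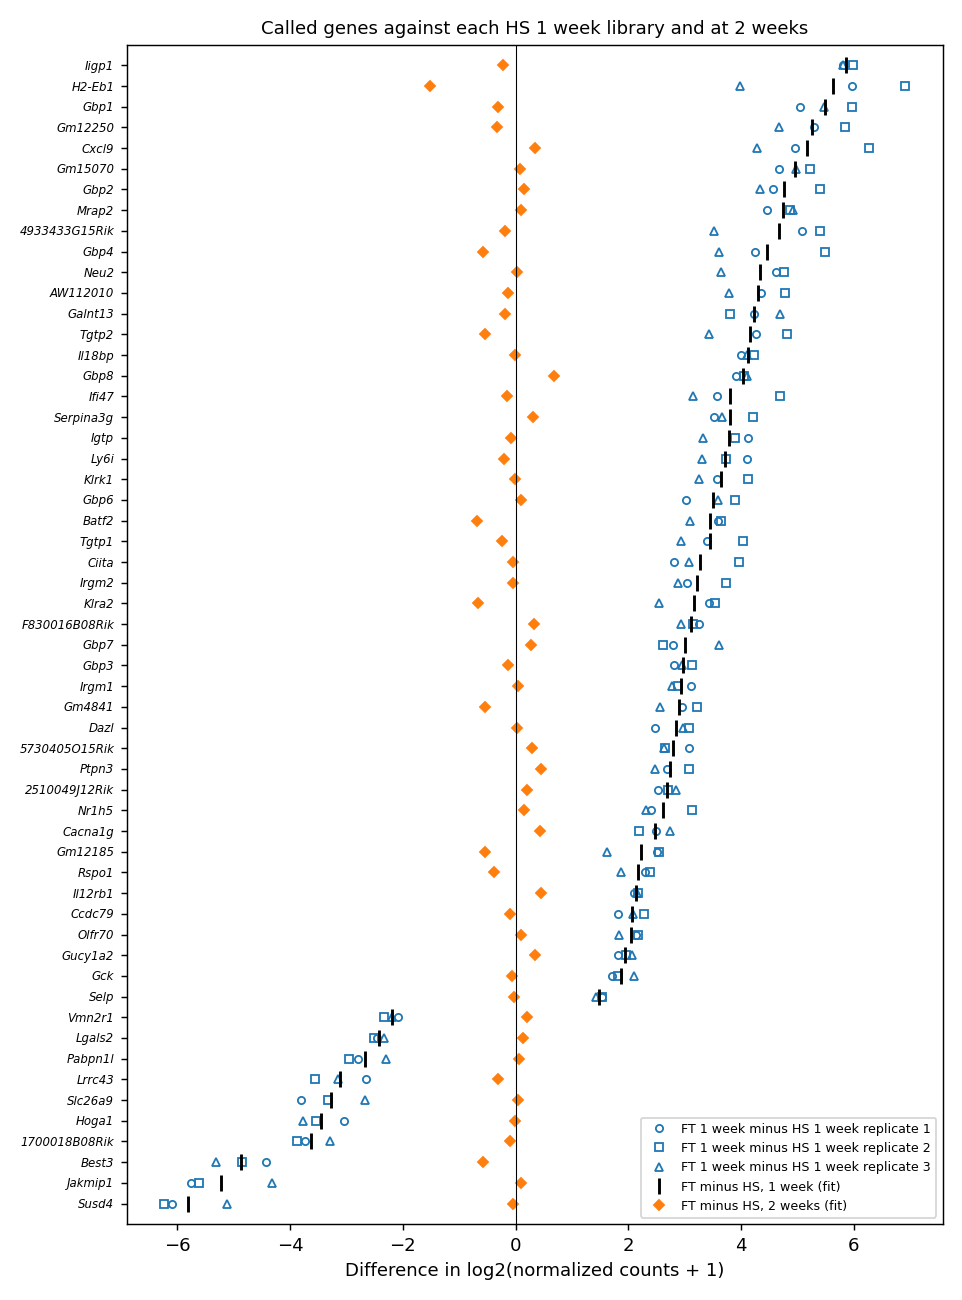
Difference in log2(normalized counts + 1) for the called genes (rows, 1 of the 57 not drawn), between FT and each HS library of 1 week (blue circle, square and triangle for replicates 1, 2 and 3), from the fit at 1 week (black bar) and from the fit at 2 weeks (orange diamond). The higher genes drawn all lie above 0 against each HS library, and their 2-week differences run from -1.51 to 0.68.

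In the genes called at 1 week, smaller differences between the same lesions were measured 2 weeks after injury. These genes were picked for their difference at 1 week, so smaller values at 2 weeks could follow from that choice alone. Over the 47 genes called higher at 1 week the median log2 difference FT minus HS at 2 weeks was -0.04 (-1.51 to 0.68), and over the 10 called lower it ran from -0.57 to 0.20. An interaction term in limma-trend, which asks whether the difference at 1 week differed from that at 2 weeks, was called in 14 genes of all tested (0.0854%), and all 14 were among the 57. They comprised 7 GTPase genes, Gm15070, Mrap2, Klrk1 and Ly6i with a positive term, and Susd4, Jakmip1 and Hoga1 with a negative term. In the other called genes the term did not pass the test, H2-Eb1 (7.14 ± 1.24, adjusted p = 0.0767) among them. The count of 14 rested on single libraries: it was 2 (Gbp1 and Gm15070) without replicate 1 of HS at 2 weeks, 7, 5 and 7 without replicates 1, 2 and 3 of FT at 2 weeks, 9 without HS replicate 1 of 1 week and 38 without HS replicate 3.

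Of 20 astrocyte markers 0 were called by limma-trend, edgeR or DESeq2, and 0 had an unadjusted p under 0.05. The median log2 difference was -1.56, and it was -2.56 and -2.98 against HS replicates 1 and 2 but 0.91 against HS replicate 3. The markers summed to 4646 in FT and 10680, 16210 and 3151 in HS, so that FT lay within the HS range. Gfap, the intermediate filament of reactive astrocytes, measured 304.1 in FT against 1631, 1239 and 101.5 in HS (-0.96 ± 1.47, adjusted p = 1.0). Serpina3n, a secreted protease inhibitor of reactive astrocytes, measured 1666 against 1457, 1938 and 407.8 (0.67 ± 0.90, adjusted p = 1.0). Both were inside the HS range.

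Of the sets proposed to describe reactive states, the A1 list of 12 genes held 2 called genes, against 0.287% of all genes called higher. These were Iigp1 and Gbp2, which are also GTPase genes. On the A1 list FT lay above all 3 HS libraries in 8 genes, against 19.1% of all genes, and below them in 1, against 23.5%. The A1 median was 1.41, while the pan-reactive (13 genes) and A2 (11 genes) lists had medians of -0.59 and 0.17 with 0 calls by limma-trend, edgeR or DESeq2 and 1 gene each at an unadjusted p under 0.05. Among the rescalings and the edgeR and DESeq2 fits the A2 median went as low as -0.19. It was -0.12 and -0.08 without HS replicates 2 and 3, and the pan-reactive median was -0.95 without HS replicate 3 and -0.22 without HS replicate 1. Among proteoglycans and tenascins, matrix molecules of the scar, 10 of 13 were below all 3 HS libraries against 23.5% of all genes, with a median of -0.98 (-0.63 without HS replicate 3). Limma-trend and edgeR called 0 of them and DESeq2 1, and 4 had an unadjusted p under 0.05. Ptprz1, a receptor phosphatase and proteoglycan, measured 22.4 against 79.2, 102.6 and 105.0 (-2.03 ± 0.45, adjusted p = 0.158), and Bcan, brevican, 26.2 against 136.9, 344.4 and 83.4 (-2.55 ± 0.87, adjusted p = 0.594). FT had the lowest value of the 12 libraries in both.

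**Figure D5:**
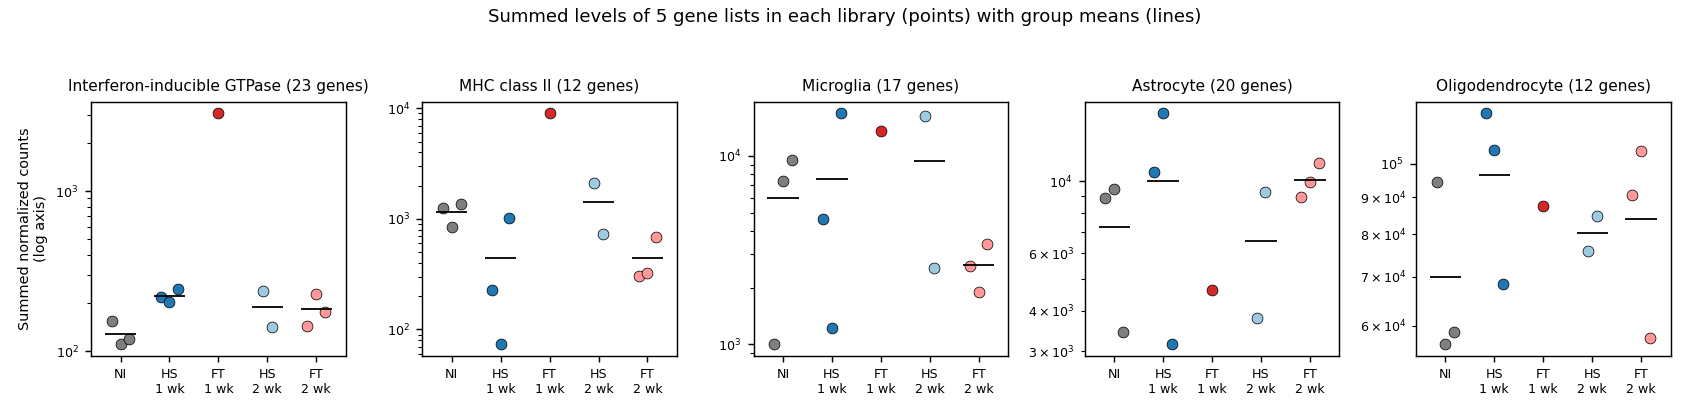
Summed normalized counts (log axis) of the GTPase, MHC class II, microglia, astrocyte and oligodendrocyte lists in each of the 12 libraries, one point per library, with a line at the mean of each group of more than 1 library. FT 1 week stands at 3056 for the GTPase list, above the 110.9 to 244.6 of the other 11, but lies within the range of the other libraries for microglia, astrocytes and oligodendrocytes.

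Lists of other cell types gave no limma-trend call apart from Klrk1. Oligodendrocyte markers had a median of -0.01 and summed to 87620 in FT against 117200, 104400 and 68330 in HS, and Mog, a myelin protein, measured 2506 against 2818, 3274 and 1874 (-0.05 ± 0.50). Monocyte and macrophage genes had a median of 1.5 (0.67 without HS replicate 2). FT was above all 3 HS libraries in 6 of 12, against 19.1% of all genes, and above all 11 others in 5, against 7.98%. They summed to 1642 in FT, 624.7, 72.4 and 1042 in HS and up to 2702 in the other libraries. Cd36, a scavenger receptor named after its value was seen, measured 114.0 against 7.27, 1.30 and 9.30 (4.31 ± 0.88, adjusted p = 0.0995) and was called by the edgeR likelihood ratio test (adjusted p = 0.000345). Neutrophil genes had a median of -2.33, which was -5.21 against HS replicate 3 and -0.92 and -0.93 against replicates 1 and 2. S100a8, an alarmin of neutrophils, measured 9.54 in FT against 26.1, 59.4 and 579.0 (-3.22 ± 1.67, adjusted p = 0.968). Ependymal cilium genes had a median of -1.31, with 12 of 13 below all HS libraries against 23.5% of all genes, and summed to 35.6 in FT against 75.8, 117.5 and 279.1. That median was -0.51, -1.27 and -2.48 against HS replicates 1, 2 and 3, and -0.64 without HS replicate 3. The neuronal (-0.52), endothelial (-0.34), pericyte and fibroblast (-0.02), B cell (-0.03), mast cell (0.97) and erythroid (-0.18) lists, with these medians, held 0 genes called by limma-trend, edgeR or DESeq2, and 2, 2, 1, 0, 1 and 0 genes at an unadjusted p under 0.05. The same held for oligodendrocyte progenitor markers (median -1.17, 1 gene at an unadjusted p under 0.05), sex-linked genes (0.11, 0 genes) and immediate early and heat shock genes (0.09, 0 genes). With each HS library of 1 week left out in turn, the medians of the mast cell, neuronal and progenitor lists ran from 0.54 to 1.0, -0.97 to -0.28 and -1.41 to -0.58, and those of the endothelial, pericyte and fibroblast, B cell, erythroid and sex-linked lists from -0.53 to -0.16, -0.78 to 0.43, -0.19 to 0.34, -0.32 to -0.04 and -0.17 to 0.37. The median of the immediate early and heat shock genes, which respond to handling and stress, joined opposite values. All 11 were higher in FT than in HS replicates 1 and 2 (medians 0.60 and 1.5) and 0 of 11 were higher than in HS replicate 3 (-1.44), and the median was -0.50 without HS replicate 2 and 1.0 without HS replicate 3. Of 17 activated phagocyte genes (0.73, or 0.43 without HS replicate 2) limma-trend called 0 and the edgeR likelihood ratio test 1.

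Hox, cell cycle, FGF and neurogenic genes gave no limma-trend call. Of 16 Hox genes, which mark the level of the body axis, 13 were below all 3 HS libraries against 23.5% of all genes, with a median of -0.78, and 2 had an unadjusted p under 0.05. The edgeR likelihood ratio test called 1 of them lower, against 0.159% of all genes, namely Hoxa7 (named after its value was seen), with 2.55 in FT against 12.5, 16.4 and 12.4 in HS (-2.04 ± 0.42, limma-trend adjusted p = 0.0963). Cell cycle genes had a median of 0.67, FGF signalling genes -0.21 and neurogenic genes -0.51, with 0, 2 and 1 genes at an unadjusted p under 0.05 and 0 called by limma-trend or edgeR, while DESeq2 called 1 FGF gene lower. The cell cycle median was 1.12 and 1.14 against HS replicates 1 and 2 but -0.24 against replicate 3, and with each library left out it was lowest (0.42) without HS replicate 1 and highest without HS replicate 3. The neurogenic median was -0.05, -0.74 and -0.51 against the 3 HS libraries and -0.21 without HS replicate 3. Tubb3, beta-III tubulin, measured 259.7 against 177.0, 205.2 and 82.2 (0.85 ± 0.60, adjusted p = 1.0). Fgfr4, an FGF receptor, measured 10.3 against 11.8, 14.5 and 7.59 (-0.07 ± 0.53, adjusted p = 1.0). FT was within the HS range for Fgfr4 and above it for Tubb3.

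By edgeR on the reads recovered from the table, the quasi-likelihood test called 37 genes, all among the 57, and the likelihood ratio test 106 including all 57. Of the 57 calls, 35 (29 higher, 6 lower) held whichever of the 11 other libraries was left out, and 14 (11 higher, 3 lower) held against each HS library alone. Without HS replicate 1 or 2 of 1 week the 10 genes called lower became 6, and without HS replicate 3 they became 17.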

How the data were processed

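RNA was sequenced from FACS-sorted Aldh1l1-EGFP cells in 12 libraries. Per the methods and the submitters' processing notes, the authors used TopHat2 2.0.9 for alignment to the mouse genome (mm10, GRCm38), HTSeq 0.5.4p3 for gene counts and edgeR 3.3.6 for normalization. The counting parameters, strand included, are not given in the sources used here, so overlapping and antisense genes are uncertain. The deposited table holds normalized counts (a signal, not raw counts), in which every value was a whole number of reads within 1e-06, so that reads could be recovered. Totals of 8270643 to 15562378 reads limit precision, and 1 read in the FT library of 1 week was worth 0.134 normalized counts.

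Groups came from the sample labels. The comparison was fitted with limma-trend (limma 3.58.1, R 4.3.3) on log2(normalized count + 1) over 5 groups, which share 7 residual degrees of freedom, after removing genes whose mean was under 0.5 in all groups. Fold changes are on that scale, which understates changes of low genes. Genes were called at a Benjamini-Hochberg adjusted p under 0.05 and at least 2-fold. The fit was also run on simulated independent counts. These held no shifts in cell content between libraries, so that run cannot show how the fit fares with such shifts. Members and gene lists were chosen with earlier results of these data known. Named were up to 20 called higher and 15 called lower genes of largest difference (mean at least 2.5), up to 4 called members of each list, the 2 most expressed members of lists with fewer than 2 calls, genes named by the study or an earlier account, and the sex-linked list.

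Alternatives were edgeR 4.0.16 (quasi-likelihood and likelihood ratio) and DESeq2 1.42.0 on recovered reads, other pseudocounts, filters and scalings, other sets of libraries, array weights, a microglial covariate and leaving out each library. Counting intervals are exact Poisson at 95% and cover counting error alone. 2 genes under the rule for named genes, 1 of them called, are not reported here.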

Additional observations from a re-analysis of the deposited data

Results flagged for a closer look

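For 14 genes the difference between FT and HS at 1 week differed from that at 2 weeks by a limma-trend interaction test (adjusted p under the threshold and at least 2-fold). The interaction values, in log2 units, were positive for Iigp1 (6.1), Gbp1 (5.81), Gm12250 (5.6), Gbp4 (5.04), Gm15070 (4.88), Tgtp2 (4.71), Mrap2 (4.66), Gbp2 (4.62), Ly6i (3.91), Tgtp1 (3.69) and Klrk1 (3.67), and negative for Susd4 (-5.77), Jakmip1 (-5.32) and Hoga1 (-3.44). The calls of Gbp1 and Gm15070 held whichever of 11 libraries was left out, those of Mrap2 and Susd4 were lost without replicate 1 of HS at 2 weeks alone, and that of Tgtp1 held with 1 library left out. The part of the single FT library of 1 week in these differences could not be tested, since no second library of that group was analysed here.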

How the results depend on the processing

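No call changed direction under any alternative, but this was largely fixed in advance. Every alternative used the same FT library, which lay beyond all 3 HS libraries in each called gene. Of the 57 genes called, with 47 higher and 10 lower, 37 genes were called by the edgeR quasi-likelihood test (30 higher), 106 by the likelihood ratio test (80 higher, 26 lower) and 125 by DESeq2 (58 lower), where 2 of the 57 had no adjusted p. Array weights gave 227 (136 higher, 91 lower) and a microglial covariate 130 (88 higher, 42 lower), both keeping all 57. Against HS replicates 1, 2 and 3 alone, 23, 35 and 17 were called (19, 29 and 13 higher; 4, 6 and 4 lower). With FT and HS at 1 week alone in limma-trend, 0 were called (0 higher, 0 lower) and 560 had an unadjusted p under 0.05, the lowest adjusted p being 0.13. A pseudocount of 0.25 left 27 higher, one of 4 left 6 lower, and a mean of at least 5 left 29 higher. Leaving out each library gave 38 to 81 calls, 32 to 64 higher and 6 to 17 lower. The interaction, called in 14 genes, was called in 51 with a pseudocount of 4, 7 after rescaling to the same total, 9 with the injured groups alone, 110 with array weights, 37 with the covariate, 24 and 7 against HS replicates 2 and 3 alone, 9, 95 and 120 by quasi-likelihood, likelihood ratio and DESeq2, and 2 to 38 with each library left out. Rescaling to the same total moved the median of all genes from -0.01 to -0.09. Cause was not tested. No paired analysis was possible because FT at 1 week has a single library without a replicate number. With 1 library, no value bears on the spread within FT at 1 week.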
